A study of Hyphopichia burtonii and Hyphopichia pseudoburtonii with 16 samples.

Results

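Transcription factors and other annotated regulators of transcription made up 106 of the 5900 genes listed for the yeast Hyphopichia pseudoburtonii and 106 of the 6115 listed for its relative H. burtonii. A gene was taken where its description named a transcription factor, a transcriptional regulator, activator or repressor, or a zinc finger protein, or where its name was HOT1, MSN4, RLM1 or NDT80. TYE7, sre1, UPC2, SUT2 and YOX1 and genes described by drug resistance were left out. No measured value entered the choice. The descriptions, credited in the tables to Swiss-Prot entries of other organisms, cover more than DNA-binding factors. By textbook role, 74 of the 106 genes in H. pseudoburtonii and 72 of the 106 in H. burtonii belonged to classes of gene-specific regulators, uncharacterised ones included. The others encode subunits of the general machinery of RNA polymerases, co-repressor and chromatin complexes, and proteins such as ZPR1, GIS2 and MUB1 that have a zinc finger and other known functions. In both species 28 of the genes shared their name with another of the set, so IDs are given with the names, and IDs are reused between the species.

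In yeasts, a rise in external osmolarity activates the kinase Hog1, which acts on DNA-binding factors such as Hot1 and Smp1, while the zinc finger activators Msn2 and Msn4 switch on a general stress programme. Sodium also acts through calcineurin and its factor Crz1, the pH regulator Rim101, and the cell wall integrity kinase with its factor Rlm1. Growth is slowed in parallel, through Sfp1, which activates genes for making ribosomes, and Dot6 and Tod6, which repress them. Many of these proteins are controlled by phosphorylation and by entry into the nucleus, neither of which RNA levels show.

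RNA was sequenced from wild-type H. pseudoburtonii strain KJS14 and wild-type H. burtonii strain KJJ43, both isolated from Nuruk, a Korean fermentation starter, and each represented by 1 strain. Cultures in YPD, a rich medium, were grown from an OD600 of 0.6 to 2.0 and sampled (0 min), and then mixed with as much YPD holding 2 M NaCl, which gives 1 M NaCl, and sampled 5, 15 and 30 min later. With 2 libraries per species and time there were 16 in all. No course without salt is part of the design, so salt and fresh medium cannot be told apart, and neither can species and library series. The labels do not say whether both libraries of a time stem from cultures of their own, so p-values speak for the spread among these libraries, which may be technical. In bulk samples, fewer cells of a kind and less RNA per cell cannot be told apart.

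Values were FPKM, read fragments scaled to gene length and to the reads of a library, which the authors deposited without counts. FPKM summed to between 1259069 and 1498017 per library. Relative depth, estimated from the smallest nonzero products of FPKM and gene span within a species, was 0.267 to 1 in H. pseudoburtonii, highest at 0 min, and 0.464 to 1 in H. burtonii, lowest at 0 min, and its part in changes of low values was not tested. Between the replicates of a time, Pearson's r over the regulator genes was 0.976 at 0 min, 0.917 at 5 min, 0.930 at 15 min and 0.950 at 30 min in H. pseudoburtonii, and 0.927, 0.988, 0.961 and 0.972 in H. burtonii. The pair of H. burtonii libraries at 0 min stood farthest apart in that species, with a gap of several fold for some regulators described here. The median over 8 libraries of a regulator gene was 24.4 FPKM in H. pseudoburtonii, against 45.4 FPKM for all genes, and 22.2 FPKM in H. burtonii, against 34.8 FPKM. A mean of at least 100 FPKM was reached by 12 regulator genes in H. pseudoburtonii and 13 in H. burtonii, and a mean under 10 FPKM was found for 14 and 26.

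In FPKM as deposited, more regulator genes rose than fell at each harvest after the shift, except at 5 min in H. pseudoburtonii. All genes leaned the same way at 15 and 30 min, and the excess was lost in part under other scalings, given below. Most of the regulator genes that rose in H. pseudoburtonii were highest at the last harvest, where the median change of all genes was largest too. Changes were tested on log2(FPKM + 1) with limma across all genes of a species that reached 1 FPKM in at least 2 libraries, which kept 103 of 106 regulator genes in H. pseudoburtonii and all 106 in H. burtonii. A gene is called, and said to have risen or fallen, where its p-value, adjusted over all genes tested, was under 0.05. In H. pseudoburtonii 6 regulator genes were higher and 6 lower at 5 min, where 4.17% and 4.55% of all genes were called. At 15 min 14 were higher and 6 lower (9.9% and 7.8% of all genes), and at 30 min 40 were higher and 4 lower (25.8% and 9.69%). In H. burtonii 18 were higher and 5 lower at 5 min (11.2% and 11.1% of all genes), 31 and 4 at 15 min (22.8% and 6.93%) and 40 and 12 at 30 min (37% and 11.1%). As shares of the regulator genes tested, those called higher came to 5.83%, 13.6% and 38.8% in H. pseudoburtonii and to 17%, 29.2% and 37.7% in H. burtonii. The share at 30 min in H. burtonii is close to that of all genes. In every called change both later libraries lay on one side of both 0 min libraries. This was not counted over all genes, and it adds no support to the calls, which were made on the same libraries.

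**Figure D1:**
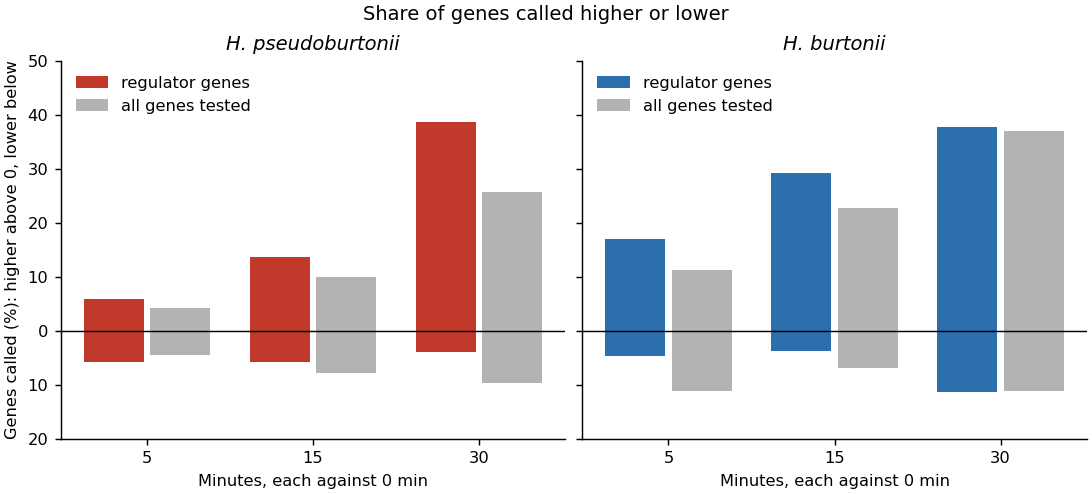
Percent of genes called higher (above 0) or lower (below 0) than at 0 min, by minutes after the shift, for the regulator genes tested (coloured, 103 in H. pseudoburtonii and 106 in H. burtonii) and all genes tested (grey, 5798 and 6047). At 30 min 38.8% of regulator genes were higher in H. pseudoburtonii, beside 25.8% of all genes, and 37.7% in H. burtonii, beside 37%.

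The whole transcriptome moved in FPKM too, and this bears on the balance of the calls. The median change of the regulator genes was 0.07, 0.05 and 0.67 on the log2 scale at 5, 15 and 30 min in H. pseudoburtonii, against 0.12, 0.10 and 0.39 for all genes. In H. burtonii it was 0.17, 0.50 and 0.63 for the regulator genes, against 0.07, 0.39 and 0.56 for all genes. Scaling by the median ratio of genes sets the 30 min medians of all genes to 0.01 and 0.07. In H. pseudoburtonii it gave 3 higher and 9 lower at 5 min (2.69% and 5.74% of all genes). Later counts there were 10 and 8 at 15 min (8.07% and 9.54%) and 22 and 9 at 30 min (15.2% and 17.1%). In H. burtonii it gave 22 and 5 at 5 min (11.6% and 11.1%). Later counts were 14 and 13 at 15 min (11.7% and 12.3%) and 15 and 18 at 30 min (16.9% and 18.1%). Quantile scaling gave 2 and 6 (3.07% and 4.42%), 8 and 6 (8.45% and 7.95%), and 17 and 11 (14.5% and 15.1%) in H. pseudoburtonii. In H. burtonii it gave 20 and 8 (9.19% and 10.8%), 11 and 11 (9.15% and 10.4%), and 11 and 18 (16.3% and 16.8%). These follow the order 5, 15 and 30 min. Single changes below are therefore read beside those medians, and every called change printed kept its direction under both scalings.

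With so few libraries the counts of calls depend on single ones. In each fit named here the share of all genes called higher fell as well. In H. pseudoburtonii the 40 genes called higher at 30 min became 17 and 16 without 0 min replicate 1 or 2 and 17 and 16 without 30 min replicate 1 or 2. At 15 min the 14 became 3 and 2 without either 0 min library, 6 and 9 without either 15 min library and 8 without either 30 min library. The 6 at 5 min became 0 without 0 min replicate 1 or 2 or 5 min replicate 2, and 2 without 5 min replicate 1 or either 30 min library. In H. burtonii the 40 at 30 min became 24 and 19 without 30 min replicate 1 or 2, and the 31 at 15 min became 10 without 15 min replicate 2 and 19 without either 5 min library. The 18 at 5 min became 11 without 0 min replicate 1 and 4 and 3 without 5 min replicate 1 or 2.

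The highest means fell at different harvests. Of the 41 regulator genes called higher at some time in H. pseudoburtonii, 2 had their highest mean at 5 min, 4 at 15 min and 35 at 30 min. Of the 50 in H. burtonii, 11 had it at 5 min, 14 at 15 min and 25 at 30 min. The same counts were not made for all genes. Their median change was also largest at 30 min, at 0.39 in H. pseudoburtonii and 0.56 in H. burtonii. A late maximum is therefore not shown to be particular to regulator genes. Between 5 and 15 min 5 regulator genes were called in H. pseudoburtonii (4.78% of all genes) and 13 in H. burtonii (20.1%). Between 15 and 30 min 17 were higher in H. pseudoburtonii, beside 11% of all genes, and in H. burtonii 4 were higher and 11 lower, beside 9.49% and 6.73% of all genes. In H. pseudoburtonii limma called no regulator gene lower between 15 and 30 min, beside 3.38% of all genes, and 3 were lower at an unadjusted p under 0.05. Median-ratio scaling gave 8 higher and 1 lower there (5.73% and 7.14% of all genes). In H. burtonii it gave 2 and 11 (4.7% and 7.99%). Quantile scaling gave 7 and 2 in H. pseudoburtonii (5.95% and 7.17%). In each fit that follows, the share of all genes called between these harvests fell as well. The 17 became 0 without either 30 min library, 5 without either 0 min library, 8 without 15 min replicate 1 and 9 with a block for replicate number. The 15 became 4 without 15 min replicate 2 and 2 and 3 without 30 min replicate 1 or 2.

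**Figure D2:**
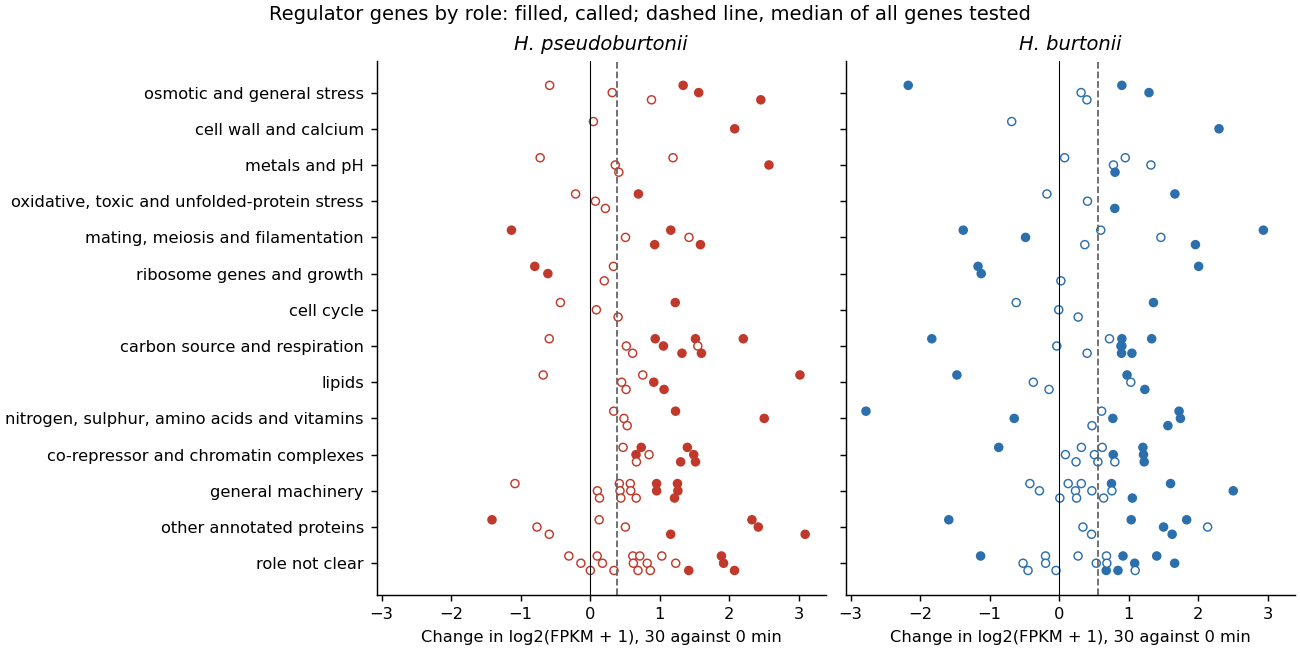
Change in log2(FPKM + 1) at 30 against 0 min for each regulator gene tested, 103 in H. pseudoburtonii and 106 in H. burtonii, grouped by role. Filled points are called, and the dashed line is the median of all genes (0.39 and 0.56); MSN4, NRG1, RIM101 and prz1 lie to the right of it in H. pseudoburtonii, and MSN4 and MET32 are at the far left in H. burtonii.

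Among factors of osmotic and general stress, MSN4 moved in opposite directions. In H. pseudoburtonii MSN4 (TBIG002722, chromosome 3, 1660220 to 1663114) had 2.73 and 2.88 FPKM at 0 min, 4.72 and 8.0 at 5 min, 8.52 and 8.77 at 15 min and 19.8 and 19.97 at 30 min. Each later harvest lay above the one before it. In H. burtonii MSN4 (TBIG005423, chromosome 7, 481597 to 483249) had 33.6 and 45.6 FPKM at 0 min, 36.6 and 37.6 at 5 min, 19 and 24.9 at 15 min and 6.58 and 9.5 at 30 min. The 0 and 5 min libraries overlapped and the 30 min libraries lay below all others. At 30 min MSN4 had risen by 2.46 (SE 0.38, adjusted p = 0.0029) in H. pseudoburtonii and its change in H. burtonii was -2.17 (SE 0.27, adjusted p = 0.00062). Subtracting the H. burtonii change from that of H. pseudoburtonii gave 4.63 (SE 0.41, adjusted p = 1.1e-05) at 30 min and 2.16 (SE 0.41, adjusted p = 0.0037) at 15 min, and these were the largest and the fourth-largest called differences of the pairs at those times. All 4 of these calls held in every alternative.

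HOT1, the factor through which Hog1 induces glycerol genes in Saccharomyces cerevisiae, was called higher in both species at 30 min. In H. pseudoburtonii HOT1 (TBIG001375, chromosome 2, 428424 to 430724) had 15.2 and 12.9 FPKM at 0 min, 27.1 and 15.4 at 5 min, 11 and 15 at 15 min and 38.4 and 35.5 at 30 min. There the 15 min libraries overlapped those of 0 min, and the 30 min libraries were the highest. The 30 min change was 1.34 (SE 0.35, adjusted p = 0.021), a call lost with median-ratio scaling (0.95) or quantile scaling (0.64) and without 0 min replicate 1 (1.45), 0 min replicate 2 (1.23), 30 min replicate 1 (1.28) or 30 min replicate 2 (1.39). In H. burtonii HOT1 (TBIG001199, chromosome 1, 2411346 to 2413115) had 0.578 and 2.0 FPKM at 0 min, 5.67 and 5.35 at 5 min, 6.18 and 9.74 at 15 min and 4.29 and 4.37 at 30 min. All later libraries lay above both 0 min libraries. Its change was 1.58 (SE 0.38, adjusted p = 0.026) at 5 min, 2.01 (SE 0.38, adjusted p = 0.0084) at 15 min and 1.29 (SE 0.38, adjusted p = 0.026) at 30 min. The 5 min call was lost without 0 min replicate 1 (1.12), 5 min replicate 1 (1.55), 5 min replicate 2 (1.62), 30 min replicate 1 (1.58) or 30 min replicate 2 (1.58), the 15 min call without 15 min replicate 2 (1.72), and the 30 min call with median-ratio scaling (0.95) or quantile scaling (0.56) or a pseudocount of 10 (0.35) and without 0 min replicate 1 (0.83), 5 min replicate 2 (1.29), 30 min replicate 1 (1.3) or 30 min replicate 2 (1.28). At 15 min the species difference, H. pseudoburtonii less H. burtonii, was -2.13 (SE 0.52, adjusted p = 0.014), lost with a pseudocount of 10 (-0.73) and without H. burtonii 15 min replicate 2 (-1.84) or H. pseudoburtonii 0 min replicate 1 (-2.02), and at 30 min it was 0.05 (SE 0.52, adjusted p = 0.96).

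NRG1, a repressor of glucose-repressed and filamentation genes, had its maximum at different harvests. In H. pseudoburtonii (TBIG001596, chromosome 2, 1024439 to 1025212) it had 80.1 and 53.8 FPKM at 0 min, 94.7 and 72.3 at 5 min, 271 and 286 at 15 min and 204 and 188 at 30 min. The 15 and 30 min libraries lay apart from and above all earlier ones, with changes of 2.07 (SE 0.23, adjusted p = 0.0016) and 1.56 (SE 0.23, adjusted p = 0.0025). In H. burtonii (TBIG000967, chromosome 1, 1920801 to 1921493) NRG1 had 32.2 and 37.6 FPKM at 0 min, 106 and 69.95 at 5 min, 36.3 and 60.2 at 15 min and 51.1 and 41.8 at 30 min. The 5 min libraries were the highest, and the change of 1.28 (SE 0.30, adjusted p = 0.024) was lost without 0 min replicate 1 (1.17), 5 min replicate 1 (0.99) or 5 min replicate 2 (1.58). The species difference at 15 min was 1.65 (SE 0.41, adjusted p = 0.014), lost without H. pseudoburtonii 0 min replicate 2 (1.37). TUP1, the co-repressor with which Nrg1 acts, was called higher in H. pseudoburtonii at 15 min (0.85), a call lost without 0 min replicate 1 (0.95), 0 min replicate 2 (0.75) or 15 min replicate 1 (0.69); it had 264 and 212 FPKM at 15 min against 140.3 and 122 FPKM at 0 min. In H. burtonii TUP1 had 69.6 and 72.8 FPKM at 5 min against 34.7 and 39.4 FPKM at 0 min. Of the other genes of this role, SMP1, a target of Hog1 in S. cerevisiae, was listed in H. pseudoburtonii with 60.5 and 57.7 FPKM at 0 min, 40.3 and 25.3 at 5 min, 49.2 and 54.2 at 15 min and 44 and 34.8 at 30 min, and no change of it from 0 min was called. XBP1, a stress-induced repressor, had 12.8 and 11.6 FPKM at 0 min, 7.32 and 6.23 at 5 min, 11.2 and 5.02 at 15 min and 21.9 and 24.8 at 30 min in H. pseudoburtonii, where its change between 15 and 30 min was 1.51 (SE 0.41, adjusted p = 0.048), lost with median-ratio scaling (1.23) or quantile scaling (0.97) or a pseudocount of 0.1 (1.62) or a replicate block (1.51) and without 0 min replicate 1 (1.51), 0 min replicate 2 (1.51), 5 min replicate 1 (1.51), 5 min replicate 2 (1.51), 15 min replicate 2 (1.00), 30 min replicate 1 (1.59) or 30 min replicate 2 (1.42). XBP1 of H. burtonii had 12.9 and 19.4 FPKM at 0 min, 26.8 and 22.2 at 5 min, 10.2 and 11.1 at 15 min and 22 and 18.1 at 30 min, and its change between 5 and 15 min was -1.12 (SE 0.26, adjusted p = 0.025), lost without 5 min replicate 1 (-0.99), 5 min replicate 2 (-1.25), 15 min replicate 1 (-1.07) or 15 min replicate 2 (-1.18). RPH1, a histone demethylase and repressor, had 33.7 and 38.6 FPKM at 30 min against 32 and 25.8 FPKM at 0 min in H. pseudoburtonii, not called. RPH1 of H. burtonii had 17.4 and 23.1 FPKM at 30 min against 11.2 and 9.36 FPKM at 0 min, a change of 0.90 (SE 0.26, adjusted p = 0.022), lost with median-ratio scaling (0.42) or quantile scaling (0.28) and without 0 min replicate 2 (0.78) or 30 min replicate 2 (0.71).

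**Figure D3:**
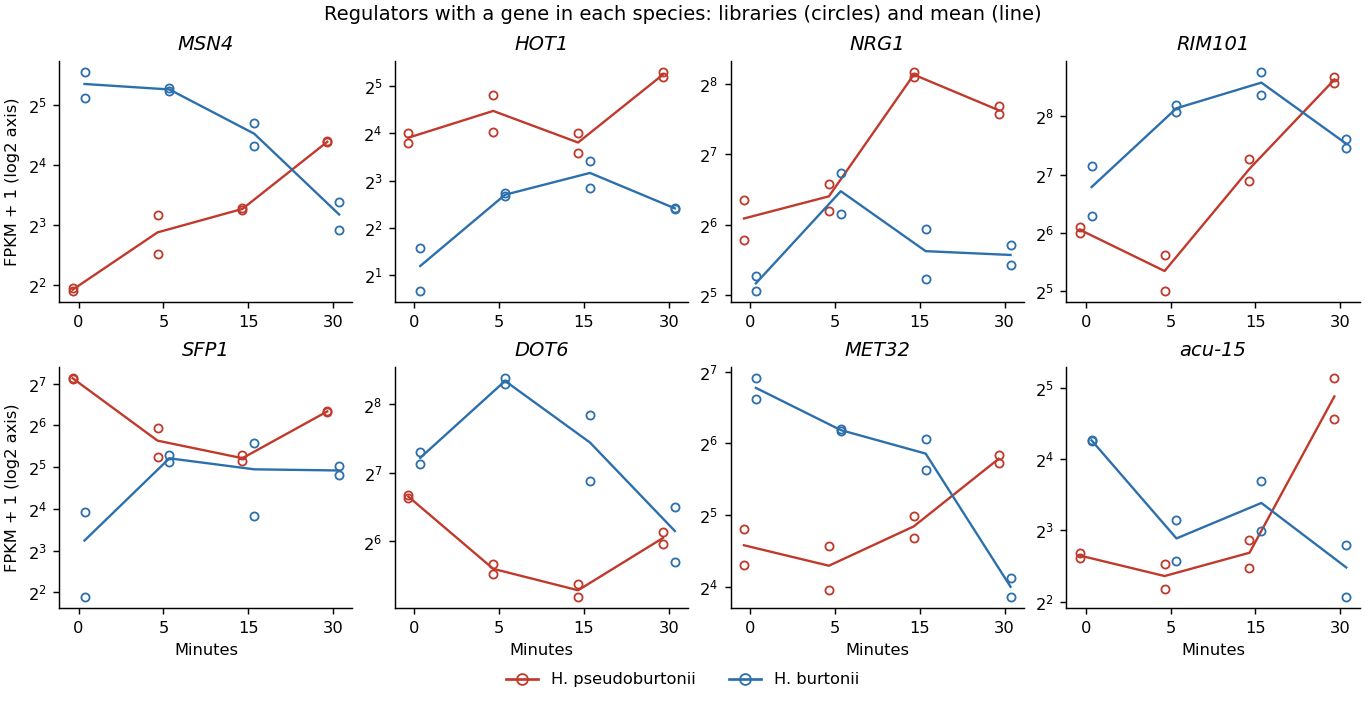
FPKM + 1 on a log2 axis by minutes after the shift for 8 regulators with a gene in each species, with each library as a circle and the mean of 2 as a line. MSN4, MET32 and acu-15 are highest at 30 min in H. pseudoburtonii and lowest at 30 min in H. burtonii, and HOT1, RIM101 and DOT6 peak at 5 or 15 min in H. burtonii.

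RIM101, the regulator of the response to alkaline pH, was the most highly expressed of the gene-specific factors in H. burtonii and was called higher at 15 and 30 min in both species. In H. pseudoburtonii RIM101 (TBIG000698, chromosome 1, 1812366 to 1814549) had 67.8 and 63.4 FPKM at 0 min, 48.5 and 31 at 5 min, 118 and 154 at 15 min and 380.4 and 411 at 30 min. The 5 min libraries lay below both 0 min libraries and the 30 min libraries above all others. The change was 2.57 (SE 0.25, adjusted p = 0.0004) at 30 min and 1.78 (SE 0.25, adjusted p = 0.012) between 5 and 15 min. In H. burtonii RIM101 (TBIG001971, chromosome 2, 1243384 to 1245166) had 77.3 and 142 FPKM at 0 min, 269 and 293 at 5 min, 331 and 433 at 15 min and 174 and 194 at 30 min. All later libraries lay above those of 0 min, with the 15 min libraries highest. The change was 1.41 (SE 0.28, adjusted p = 0.015) at 5 min, lost without 5 min replicate 1 (1.48) or 5 min replicate 2 (1.35), and 1.84 (SE 0.28, adjusted p = 0.0038) at 15 min. The species difference turned sign, at -2.16 (SE 0.40, adjusted p = 0.0043) at 5 min and 1.77 (SE 0.40, adjusted p = 0.0048) at 30 min.

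Cell wall and calcium factors were represented by different genes in the species. RLM1, the MADS-box factor that the cell wall integrity kinase activates, was listed for H. burtonii (TBIG002194, chromosome 2, 1692232 to 1693901) with 6.51 and 3.98 FPKM at 0 min, 41 and 34.1 at 5 min, 27.3 and 31.9 at 15 min and 27.1 and 31.3 at 30 min. Each later library held several times the FPKM of either 0 min library. The changes were 2.65 (SE 0.26, adjusted p = 0.0011) at 5 min, 2.32 (SE 0.26, adjusted p = 0.001) at 15 min and 2.3 (SE 0.26, adjusted p = 0.00047) at 30 min, and each held in every alternative. No gene of H. pseudoburtonii carried that name among the regulator genes. There prz1, named after the calcineurin-dependent factor of Schizosaccharomyces pombe, was listed instead (TBIG000308, chromosome 1, 820146 to 823160), with 52.2 and 46.7 FPKM at 0 min, 51.1 and 39.6 at 5 min, 63.1 and 80.2 at 15 min and 204 and 220.2 at 30 min. The 30 min libraries stood well above the rest, with a change of 2.08 (SE 0.22, adjusted p = 0.00061).

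NDT80, in S. cerevisiae the activator of middle meiotic genes and in Candida albicans also a factor of biofilm and drug response, was on 4 genes of H. pseudoburtonii and 2 of H. burtonii. In H. pseudoburtonii the copy with the most signal (TBIG004950, chromosome 6, 1380819 to 1382666) had 242 and 208 FPKM at 0 min, 190.3 and 135 at 5 min, 183 and 139 at 15 min and 97 and 107 at 30 min. Its 30 min libraries lay below all others, with a change of -1.13 (SE 0.23, adjusted p = 0.0081), lost without 0 min replicate 1 (-1.02) or 30 min replicate 1 (-1.06). TBIG005334 had 6.28 and 7.72 FPKM at 0 min, 9.68 and 8.04 at 5 min, 5.92 and 7.47 at 15 min and 9.04 and 11.8 at 30 min, and no change of it was called. TBIG002540 stayed between 0 and 6.18 FPKM, and TBIG001774 was listed at 0 in all 8 libraries and not tested. The H. burtonii copy on chromosome 1 (TBIG000609, chromosome 1, 1203235 to 1205010) had 2.12 and 1.08 FPKM at 0 min, 40.2 and 32.2 at 5 min, 12.1 and 22.3 at 15 min and 17.5 and 19.6 at 30 min. It had at most 2.12 FPKM before the shift and at least 12.1 FPKM in each later library. Its change of 3.86 (SE 0.35, adjusted p = 0.00077) at 5 min was the highest of the regulator genes there, followed by 2.78 (SE 0.35, adjusted p = 0.0015) at 15 min and 2.94 (SE 0.35, adjusted p = 0.00053) at 30 min. The other H. burtonii copy (TBIG005861, chromosome 8, 433808 to 435319) had 0 and 1.07 FPKM at 0 min, 0.811 and 1.42 at 5 min, 2.0 and 2.41 at 15 min and 3.32 and 6.26 at 30 min, with a change of 1.96 (SE 0.46, adjusted p = 0.011) at 30 min, lost with quantile scaling (1.24) and without 30 min replicate 2 (1.59). No source used here says how reads shared by copies were divided, so values of single copies are uncertain, and the copies of the species were not paired.

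**Figure D4:**
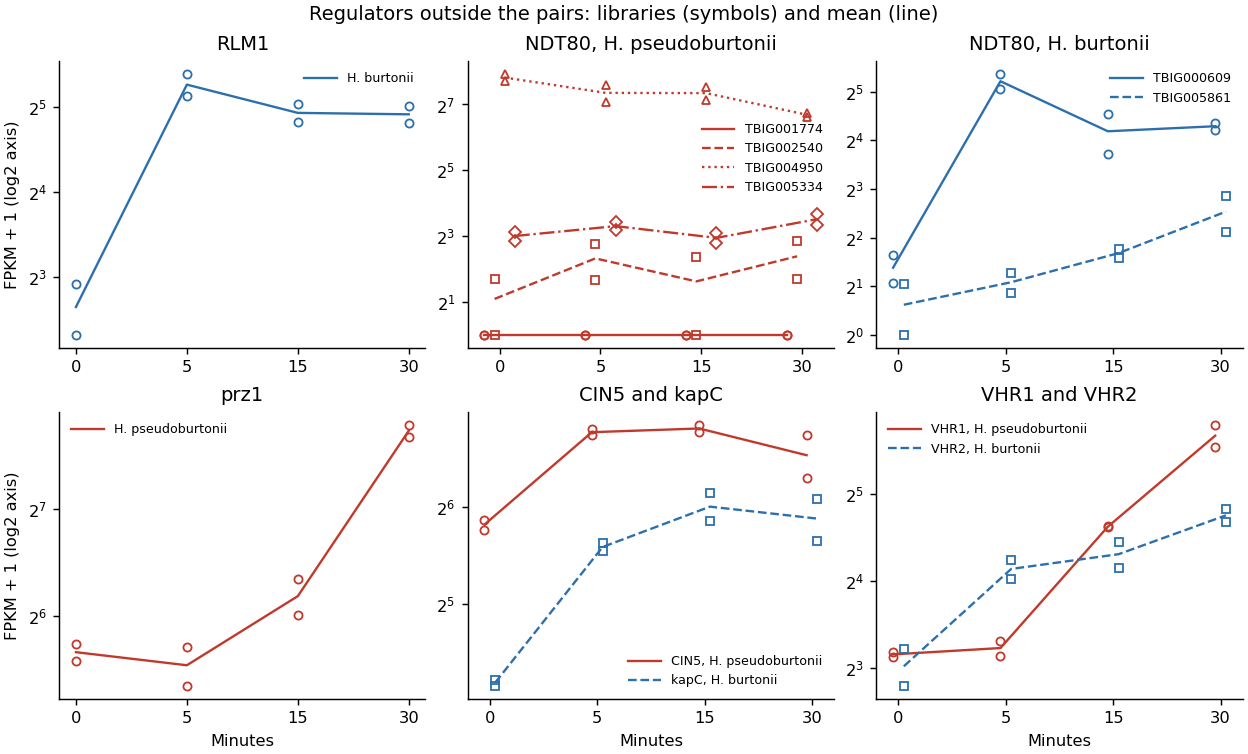
FPKM + 1 on a log2 axis by minutes after the shift for regulators named in 1 species or present in several copies, with each library as a symbol and the mean of 2 as a line. RLM1 and NDT80 TBIG000609 of H. burtonii are at their highest at 5 min, and prz1 and VHR1 of H. pseudoburtonii at 30 min.

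Of the factors for filamentous growth, the paired CZF1 genes moved in opposite directions. In H. pseudoburtonii it had 63.9 and 61.2 FPKM at 30 min against 25.7 and 29.2 FPKM at 0 min, and in H. burtonii TBIG004150 had 6.68 and 11.8 FPKM at 30 min against 30.1 and 20.3 FPKM at 0 min. The groups did not overlap in either species. The H. burtonii change was -1.38 (SE 0.31, adjusted p = 0.0088), lost without 30 min replicate 1 (-1.01), and the species difference was 2.54 (SE 0.50, adjusted p = 0.0022). Another H. burtonii gene named CZF1 (TBIG002426) was not in the pair. It had 9.21 and 7.56 FPKM at 30 min against 3.69 and 10.2 FPKM at 0 min, and these groups overlapped. CPH1, the C. albicans counterpart of the mating factor Ste12, had 24.7 and 21.4 FPKM at 30 min against 8.4 and 5.78 FPKM at 0 min in H. pseudoburtonii, with a change of 1.59 (SE 0.36, adjusted p = 0.013), lost with quantile scaling (0.75) and without 0 min replicate 2 (1.35), 30 min replicate 1 (1.49) or 30 min replicate 2 (1.69); in H. burtonii it had at most 9.08 FPKM in any library. RBF1 was the most highly expressed gene of this group in H. burtonii, at 104 to 224 FPKM over the 8 libraries.

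Among basic leucine zipper factors, kapC, named after a putative factor of Aspergillus, was called higher at each later harvest in H. burtonii. It (TBIG003983, chromosome 4, 1535010 to 1535774) had 17.7 and 16.9 FPKM at 0 min, 48.4 and 45.8 at 5 min, 69.4 and 56.8 at 15 min and 49.2 and 66.6 at 30 min. Each later library held at least 45.8 FPKM. The changes were 1.39 (SE 0.22, adjusted p = 0.0061) at 5 min, lost without 5 min replicate 1 (1.35) or 5 min replicate 2 (1.43), 1.8 (SE 0.22, adjusted p = 0.0013) at 15 min and 1.67 (SE 0.22, adjusted p = 0.00078) at 30 min. In H. pseudoburtonii CIN5, a Yap-family factor linked to salt tolerance in S. cerevisiae, had 53.4 and 57.4 FPKM at 0 min, 109.9 and 106 at 5 min, 113 and 108 at 15 min and 105 and 77.4 at 30 min. Its later libraries all lay above those of 0 min, and the 15 min change of 0.99 (SE 0.20, adjusted p = 0.016) was lost without 0 min replicate 1 (0.93), 0 min replicate 2 (1.04) or 15 min replicate 1 (0.95). No change from 0 min was called for YAP1, the oxidative stress factor, in either species. The species difference of YAP1 at 5 min was called, with the lower change in H. pseudoburtonii. HAC1, the factor of the unfolded protein response, was listed in H. pseudoburtonii with 214 and 198 FPKM at 0 min, 149 and 97.8 at 5 min, 131 and 107 at 15 min and 170.5 and 185 at 30 min, and no change of it was called.

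Of the 4 regulators of ribosome genes, SFP1 and DOT6 changed differently in the species at 5 min. The differences of TOD6, 0.11 (SE 0.29, adjusted p = 0.81), and TBF1, 0.98 (SE 0.46, adjusted p = 0.16), were not called at that time. In H. pseudoburtonii SFP1 (TBIG001065, chromosome 1, 2737293 to 2738834) had 141 and 138 FPKM at 0 min, 60.7 and 36.7 at 5 min, 34.3 and 37.9 at 15 min and 80.6 and 78.9 at 30 min. Every later library lay below both 0 min libraries. Its change was -1.54 (SE 0.26, adjusted p = 0.013) at 5 min, lost without 0 min replicate 1 (-1.52) or 0 min replicate 2 (-1.55), and -1.92 (SE 0.26, adjusted p = 0.0029) at 15 min. In H. burtonii SFP1 (TBIG004501, chromosome 5, 1023614 to 1024765) had 2.7 and 14.2 FPKM at 0 min, 38.5 and 33.7 at 5 min, 13.1 and 46.6 at 15 min and 31.7 and 26.9 at 30 min. The 0 min libraries differed several fold, and 1 of the 15 min libraries lay below the higher of them. The difference between the species was -3.84 (SE 0.83, adjusted p = 0.0099) at 5 min and -3.71 (SE 0.83, adjusted p = 0.0095) at 15 min, which held in every alternative, and -2.8 (SE 0.83, adjusted p = 0.02) at 30 min, which was lost without H. burtonii 0 min replicate 1 (-1.79), H. burtonii 30 min replicate 1 (-2.69), H. pseudoburtonii 0 min replicate 1 (-2.79), H. pseudoburtonii 0 min replicate 2 (-2.82), H. pseudoburtonii 30 min replicate 1 (-2.82) or H. pseudoburtonii 30 min replicate 2 (-2.79).

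In H. pseudoburtonii DOT6 (TBIG000274, chromosome 1, 719351 to 720824) had 98.4 and 101 FPKM at 0 min, 45 and 50.1 at 5 min, 35.5 and 40.6 at 15 min and 61.2 and 69.4 at 30 min, with all later libraries below those of 0 min. The change was -1.06 (SE 0.20, adjusted p = 0.021) at 5 min, lost without 0 min replicate 1 (-1.08), 0 min replicate 2 (-1.04) or 5 min replicate 1 (-0.98), and -1.37 (SE 0.20, adjusted p = 0.0041) at 15 min, lost without 0 min replicate 2 (-1.35). In H. burtonii DOT6 (TBIG001652, chromosome 2, 593765 to 594448) had 139 and 157 FPKM at 0 min, 335 and 313 at 5 min, 117 and 229 at 15 min and 89.4 and 50.9 at 30 min. Its 5 min libraries were the highest and its 30 min libraries the lowest. The change at 5 min, 1.12 (SE 0.35, adjusted p = 0.056), was not called. The change at 30 min was -1.12 (SE 0.35, adjusted p = 0.032), lost without 0 min replicate 1 (-1.21), 0 min replicate 2 (-1.03), 5 min replicate 1 (-1.12), 5 min replicate 2 (-1.12) or 30 min replicate 2 (-0.72), and the species difference at 5 min was -2.18 (SE 0.43, adjusted p = 0.0056). TOD6, the paralog of DOT6 in S. cerevisiae, had 20.2 and 19.7 FPKM at 30 min against 14.6 and 20.2 FPKM at 0 min in H. pseudoburtonii. In H. burtonii it had 63.8 and 67.4 FPKM at 30 min against 136 and 162 FPKM at 0 min, a change of -1.17 (SE 0.16, adjusted p = 0.0011), and the species difference was 1.37 (SE 0.29, adjusted p = 0.0029). TBF1, which binds ribosomal protein promoters in C. albicans, was called in neither species.

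ZPR1, a zinc finger chaperone of the translation elongation factor eEF1A, was among the most abundant of all these genes and fell in both species by 30 min. In H. pseudoburtonii (TBIG004134, chromosome 5, 1259378 to 1260931) it had 447 and 426 FPKM at 0 min, 248 and 223 at 5 min, 162 and 207 at 15 min and 167 and 160.0 at 30 min. Its later libraries all lay below those of 0 min, with changes of -1.25 (SE 0.17, adjusted p = 0.0032) at 15 min and -1.41 (SE 0.17, adjusted p = 0.0011) at 30 min. In H. burtonii (TBIG003147, chromosome 3, 1613600 to 1615132) it had 226 and 327 FPKM at 0 min, 766 and 820.1 at 5 min, 202 and 383 at 15 min and 108 and 74.7 at 30 min. Both 5 min libraries were far above all others. The change was 1.54 (SE 0.33, adjusted p = 0.018) at 5 min, lost without 0 min replicate 1 (1.27), 5 min replicate 1 (1.59) or 5 min replicate 2 (1.49), and -1.59 (SE 0.33, adjusted p = 0.0065) at 30 min, lost without 30 min replicate 2 (-1.32). The species difference was -2.43 (SE 0.41, adjusted p = 0.0022) at 5 min. At 30 min it was 0.18 (SE 0.41, adjusted p = 0.76). GIS2, a zinc knuckle protein linked to translation, had the highest mean of the regulator genes in both species, at 526 to 1407 FPKM over the libraries of H. pseudoburtonii and 549 to 1136 FPKM in H. burtonii.

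Genes of 2 AN1-type zinc finger proteins, annotated after YNL155W and YOR052C of S. cerevisiae, were also highly expressed. The YNL155W-like gene (YNP5_YEAST) had 56.8 and 67 FPKM at 0 min, 68.5 and 53.6 at 5 min, 353 and 302 at 15 min and 584 and 489.6 at 30 min in H. pseudoburtonii. The 15 and 30 min libraries did not overlap with the earlier ones. Its changes were 2.39 (SE 0.20, adjusted p = 0.00054) at 15 min and 3.09 (SE 0.20, adjusted p = 7.4e-05) at 30 min, the highest of the regulator genes there at both times. In H. burtonii it had 499 and 379.7 FPKM at 0 min, 391 and 385 at 5 min, 696 and 487 at 15 min and 507 and 715 at 30 min, with overlap between the times and no called change. The species difference was 1.97 (SE 0.34, adjusted p = 0.0022) at 15 min and 2.63 (SE 0.34, adjusted p = 0.00014) at 30 min. The YOR052C-like gene (YO052_YEAST) had 526 and 478 FPKM at 0 min, 118 and 140.1 at 5 min, 259 and 398 at 15 min and 728 and 699 at 30 min in H. pseudoburtonii. It was lowest at 5 min, with a change of -1.96 (SE 0.22, adjusted p = 0.0023). In H. burtonii it had 17.6 and 112 FPKM at 0 min, 179 and 266 at 5 min, 165 and 429.9 at 15 min and 189 and 213 at 30 min, and its 0 min libraries stood several fold apart. The species difference was -4.21 (SE 0.90, adjusted p = 0.0089) at 5 min and -3.19 (SE 0.90, adjusted p = 0.026) at 15 min, the second lost without H. burtonii 15 min replicate 2 (-2.5), H. pseudoburtonii 0 min replicate 1 (-3.12), H. pseudoburtonii 0 min replicate 2 (-3.26) or H. pseudoburtonii 15 min replicate 1 (-2.88).

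Sulphur, amino acid and vitamin regulators held 1 of the strongest falls. MET32, a zinc finger factor for genes of sulphur amino acid synthesis, had 27 and 18.7 FPKM at 0 min, 22.7 and 14.4 at 5 min, 30.8 and 24.6 at 15 min and 56.1 and 52.2 at 30 min in H. pseudoburtonii (TBIG002497, chromosome 3, 1089077 to 1090975). Its 30 min libraries were the highest, with a change of 1.23 (SE 0.32, adjusted p = 0.02), lost with median-ratio scaling (0.84) or quantile scaling (0.65) and without 0 min replicate 1 (1.48), 0 min replicate 2 (0.98), 30 min replicate 1 (1.18) or 30 min replicate 2 (1.28). In H. burtonii MET32 (TBIG005903, chromosome 8, 517602 to 518840) had 97.2 and 120.1 FPKM at 0 min, 71 and 72.7 at 5 min, 48.4 and 65.6 at 15 min and 13.5 and 16.5 at 30 min. Each harvest lay below the one before it. The change was -2.78 (SE 0.22, adjusted p = 9.3e-05) at 30 min, the lowest of the regulator genes there, and -1.85 (SE 0.22, adjusted p = 0.0022) between 15 and 30 min. The species difference was 4.01 (SE 0.38, adjusted p = 1.8e-05). VHR1 of H. pseudoburtonii, a factor for biotin uptake genes in S. cerevisiae, had 7.77 and 8.09 FPKM at 0 min, 8.95 and 7.83 at 5 min, 23.7 and 23.6 at 15 min and 54.4 and 45.4 at 30 min. Its 0 and 5 min libraries overlapped, and it changed by 1.47 (SE 0.28, adjusted p = 0.012) at 15 min, lost without 0 min replicate 1 (1.44) or 0 min replicate 2 (1.49), and 2.51 (SE 0.28, adjusted p = 0.00073) at 30 min. VHR2, named after its S. cerevisiae paralog, had 24.6 and 27.4 FPKM at 30 min against 8.29 and 5.96 FPKM at 0 min in H. burtonii, a change of 1.75 (SE 0.25, adjusted p = 0.0012). ARO80, the activator of aromatic amino acid breakdown, was annotated on 2 neighbouring genes of H. burtonii that lay 116 bases apart on the same strand, at 2193 and 594 bases. They changed by 1.73 (SE 0.25, adjusted p = 0.0013) (TBIG002405) and 1.57 (SE 0.34, adjusted p = 0.007) (TBIG002406), the second lost with quantile scaling (0.87). In H. pseudoburtonii ARO80 had 13 and 13.9 FPKM at 30 min against 9.09 and 9.56 FPKM at 0 min on a single gene of 3429 bases. STP1, a factor for amino acid permeases, had 45.7 and 48.9 FPKM at 15 min against 22.7 and 17.3 FPKM at 0 min in H. burtonii, with a change of 1.21 (SE 0.24, adjusted p = 0.01), lost with quantile scaling (0.80) and without 15 min replicate 2 (1.16).

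Of the 10 carbon source and respiration regulators, 6 were called higher at 30 min in H. pseudoburtonii, and 6 higher and 1 lower in H. burtonii, beside 25.8% and 37% of all genes called higher. Single genes differed between the species. The gene named after acu-15, the Neurospora activator of acetate use, had 5.12 and 5.41 FPKM at 0 min, 4.76 and 3.5 at 5 min, 6.32 and 4.56 at 15 min and 22.6 and 34.4 at 30 min in H. pseudoburtonii (TBIG005116, chromosome 6, 1811121 to 1814999) and 18.1 and 18.4 FPKM at 0 min, 7.87 and 4.93 at 5 min, 11.9 and 6.98 at 15 min and 3.19 and 5.97 at 30 min in H. burtonii (TBIG000101, chromosome 1, 195178 to 198752). At 30 min the libraries of H. pseudoburtonii lay above all earlier ones, while those of H. burtonii lay below its 0 min libraries. The changes were 2.2 (SE 0.40, adjusted p = 0.0052) and -1.83 (SE 0.37, adjusted p = 0.0059), and the species difference was 4.04 (SE 0.53, adjusted p = 0.00015). HAP5, a subunit of the CCAAT-binding complex that controls respiratory genes, had 37.1 and 49.3 FPKM at 30 min against 60.9 and 68.9 FPKM at 0 min in H. pseudoburtonii and 60.3 and 60.5 FPKM at 30 min against 24.6 and 22.3 FPKM at 0 min in H. burtonii. It rose in H. burtonii by 1.33 (SE 0.20, adjusted p = 0.0016), was not called in H. pseudoburtonii (-0.59 (SE 0.25, adjusted p = 0.11)), and differed between the species by -1.41 (SE 0.31, adjusted p = 0.0085) at 15 min and -1.92 (SE 0.31, adjusted p = 0.0006) at 30 min. AZF1, which in S. cerevisiae acts on genes of growth on glucose, changed by 1.26 (SE 0.20, adjusted p = 0.0041) at 15 min in H. burtonii, at 83.3 and 107 FPKM at 15 min against 35.6 and 42.7 FPKM at 0 min. The regulator HAP1, which senses heme in S. cerevisiae, was annotated on 4 genes in each species, and TBIG003748 of H. pseudoburtonii, at 29.8 and 43.6 FPKM at 30 min against 11.4 and 11.1 FPKM at 0 min, had the largest change of those, 1.6 (SE 0.32, adjusted p = 0.0077), lost with quantile scaling (0.88) and without 0 min replicate 1 (1.62), 0 min replicate 2 (1.59) or 30 min replicate 2 (1.33).

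Among lipid regulators, CTF1-ALPHA, whose relatives in Candida control fatty acid breakdown, lay on 2 neighbouring genes in each species. In H. pseudoburtonii TBIG001326 had 3.3 and 4.12 FPKM at 0 min, 8.99 and 6.73 at 5 min, 9.85 and 9.28 at 15 min and 38.1 and 36 at 30 min. The 30 min libraries lay far above the others, with a change of 3.02 (SE 0.33, adjusted p = 0.00073). In H. burtonii TBIG001248 had 25.4 and 56.6 FPKM at 0 min, 78 and 66.4 at 5 min, 105 and 176 at 15 min and 26.9 and 31.6 at 30 min. It peaked at 15 min, with a change from 0 min of 1.81 (SE 0.39, adjusted p = 0.013), lost without 15 min replicate 2 (1.44), and one of -2.18 (SE 0.39, adjusted p = 0.01) between 15 and 30 min, lost without 15 min replicate 2 (-1.81), 30 min replicate 1 (-2.06) or 30 min replicate 2 (-2.29). OAF3, a regulator of oleate-responsive genes, was on 2 genes of H. burtonii, of which TBIG005281 had 21 and 19.8 FPKM at 0 min, 43.3 and 36.3 at 5 min, 32.6 and 38.4 at 15 min and 4.97 and 9.01 at 30 min. Its 30 min libraries lay below all others, with a change of -1.47 (SE 0.28, adjusted p = 0.0045) from 0 min and -2.24 (SE 0.28, adjusted p = 0.0028) from 15 min. In H. pseudoburtonii the OAF3 copy TBIG004309 had 30.2 and 30.02 FPKM at 0 min, 14.4 and 9.16 at 5 min, 11 and 11.9 at 15 min and 41.3 and 46 at 30 min, lowest at 5 and 15 min, and its change between 15 and 30 min was 1.84 (SE 0.30, adjusted p = 0.012), lost without 30 min replicate 1 (1.92) or 30 min replicate 2 (1.77). No OAF3 or CTF1-ALPHA copy was paired between the species.

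Of the 4 cell cycle factors in each species 1 was called higher at 30 min, where 25.8% of all genes were called higher in H. pseudoburtonii and 37% in H. burtonii. MCM1, the MADS-box factor of mating and cell division genes, had 10.7 and 10.2 FPKM at 0 min, 30.5 and 31.8 at 5 min, 18.4 and 19.9 at 15 min and 10.7 and 11.6 at 30 min in H. pseudoburtonii. Its 5 min libraries were the highest, with a change of 1.49 (SE 0.27, adjusted p = 0.019), lost without 0 min replicate 1 (1.52), 0 min replicate 2 (1.46) or 5 min replicate 2 (1.46). In H. burtonii MCM1 had 154 to 236 FPKM in all libraries and no called change, and the species difference was 1.6 (SE 0.27, adjusted p = 0.0024). ASH1, a daughter-cell repressor in S. cerevisiae, had 40.2 and 30.7 FPKM at 15 min against 92.7 and 71.7 FPKM at 0 min in H. pseudoburtonii, a change of -1.19 (SE 0.26, adjusted p = 0.02), lost without 0 min replicate 1 (-1.01), 0 min replicate 2 (-1.37) or 15 min replicate 2 (-1.0). MBP1, a factor of the G1 to S transition, had 5.27 and 7.35 FPKM at 30 min against 1.7 and 1.95 FPKM at 0 min in H. burtonii, a change of 1.36 (SE 0.31, adjusted p = 0.0089), lost with quantile scaling (0.63) and without 30 min replicate 2 (1.15).

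Subunits of the Rpd3 histone deacetylase complex, which Dot6 and Tod6 recruit in S. cerevisiae, rose in part in H. pseudoburtonii. PHO23 had 47.6 and 45.6 FPKM at 0 min, 52.3 and 55.6 at 5 min, 99 and 79.7 at 15 min and 119 and 153 at 30 min there, with the 15 and 30 min libraries above all earlier ones and a change of 1.52 (SE 0.21, adjusted p = 0.0018) at 30 min. In H. burtonii PHO23 had 101 and 129.9 FPKM at 0 min, 141 and 128 at 5 min, 131 and 113 at 15 min and 55.1 and 70.2 at 30 min. Its 30 min libraries were the lowest, with a change of -0.87 (SE 0.21, adjusted p = 0.011), lost without 30 min replicate 1 (-0.70), and the species difference was 2.39 (SE 0.30, adjusted p = 0.00011). DEP1 had 71.4 and 73.4 FPKM at 30 min against 25 and 28.7 FPKM at 0 min in H. pseudoburtonii, a change of 1.4 (SE 0.22, adjusted p = 0.003), and 20.03 and 25.8 FPKM at 30 min against 22.4 and 20.2 FPKM at 0 min in H. burtonii, where the groups overlapped, and the species difference was 1.31 (SE 0.29, adjusted p = 0.0045). SDS3 had 68.7 and 86.8 FPKM at 30 min against 21.5 and 33.4 FPKM at 0 min in H. pseudoburtonii, a change of 1.49 (SE 0.27, adjusted p = 0.0055), lost without 30 min replicate 2 (1.32). It was called higher in H. burtonii too, at 45.5 and 68.6 FPKM at 30 min against 29.3 and 18.5 FPKM at 0 min. The species difference of SDS3, 0.27 (SE 0.46, adjusted p = 0.68), was not called. Of the 9 co-repressor and chromatin genes of H. pseudoburtonii 6 were called higher at 30 min, beside 25.8% of all genes. In H. burtonii 4 of 12 were higher and 1 lower, with 37% and 11.1% of all genes, so the count there was no larger than that of all genes in proportion.

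In the general machinery, BYE1, which binds RNA polymerase II, had the largest change. In H. pseudoburtonii BYE1 had 23.4 and 40.5 FPKM at 30 min against 20.3 and 20.1 FPKM at 0 min. In H. burtonii (TBIG005711, chromosome 8, 140399 to 142534) it had 8.46 and 10.2 FPKM at 0 min, 11.6 and 9.68 at 5 min, 24 and 28.9 at 15 min and 61.3 and 53.7 at 30 min. The 15 and 30 min libraries stood apart from the earlier ones, with changes of 1.41 (SE 0.23, adjusted p = 0.0044) and 2.51 (SE 0.23, adjusted p = 0.00016). The species difference at 30 min was -1.92 (SE 0.39, adjusted p = 0.0025). TFB1 and TFB2 encode subunits of TFIIH, which opens promoters and repairs DNA. TFB1 had 27.9 and 31.2 FPKM at 30 min against 7.47 and 10.9 FPKM at 0 min in H. burtonii, a change of 1.6 (SE 0.24, adjusted p = 0.0016). TFB2 had 9.71 and 3.99 FPKM at 30 min against 11.2 and 18.6 FPKM at 0 min in H. pseudoburtonii and 68.4 and 74.2 FPKM at 30 min against 32.8 and 34.8 FPKM at 0 min in H. burtonii. Its change in H. burtonii, 1.05 (SE 0.18, adjusted p = 0.0025), was lost with median-ratio scaling (0.55) or quantile scaling (0.56), and the species difference was -2.13 (SE 0.49, adjusted p = 0.0051). IWS1, an elongation factor, had 187 and 148 FPKM at 30 min against 86.8 and 83.9 FPKM at 0 min in H. pseudoburtonii, a change of 0.96 (SE 0.18, adjusted p = 0.0055). At 30 min 5 of the 14 machinery genes were called higher in H. pseudoburtonii and 4 of 14 in H. burtonii, beside 25.8% and 37% of all genes.

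A few genes rose in both species. MUB1, whose product works with a ubiquitin ligase on the proteasome factor Rpn4 in S. cerevisiae, had 15.1 and 13.4 FPKM at 0 min, 29.8 and 34.1 at 5 min, 41.7 and 37.8 at 15 min and 77.3 and 73.7 at 30 min in H. pseudoburtonii. Its later libraries all lay above those of 0 min. The change was 1.42 (SE 0.23, adjusted p = 0.0062) at 15 min, lost without 0 min replicate 2 (1.34), and 2.33 (SE 0.23, adjusted p = 0.00042) at 30 min. In H. burtonii MUB1 had 70.4 and 56.3 FPKM at 30 min against 17.5 and 26.6 FPKM at 0 min, a change of 1.5 (SE 0.28, adjusted p = 0.0038). The gene named after ada, a bacterial repair enzyme and activator, had 89 and 50.8 FPKM at 30 min against 12.5 and 11 FPKM at 0 min in H. pseudoburtonii and 204 and 240.0 FPKM at 30 min against 83.6 and 60.2 FPKM at 0 min in H. burtonii. Its changes were 2.42 (SE 0.36, adjusted p = 0.0024) and 1.63 (SE 0.25, adjusted p = 0.0017). The zinc finger gene SPAC25B8.19c had 3.82 and 3.23 FPKM at 0 min, 15.8 and 11.3 at 5 min, 9.84 and 11.4 at 15 min and 16 and 20.4 at 30 min in H. pseudoburtonii and 6.13 and 5.29 FPKM at 0 min, 23.3 and 25.2 at 5 min, 10.7 and 18.1 at 15 min and 14.8 and 18.9 at 30 min in H. burtonii. In both species every later library lay above both 0 min libraries. The change at 30 min was 2.08 (SE 0.35, adjusted p = 0.0042) in H. pseudoburtonii. In H. burtonii it was 1.91 (SE 0.29, adjusted p = 0.0059) at 5 min, lost without 5 min replicate 1 (1.97) or 5 min replicate 2 (1.86), and 1.4 (SE 0.29, adjusted p = 0.0063) at 30 min, lost with quantile scaling (0.71).

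Regulators without a clear role moved as well. In H. burtonii YCV2_SCHPO (TBIG002759, chromosome 3, 836144 to 837385) had 7.06 and 10.04 FPKM at 0 min, 34 and 32.5 at 5 min, 43.1 and 47.1 at 15 min and 27.3 and 30.5 at 30 min. Each later library held at least 27.3 FPKM, above both 0 min libraries. The changes were 1.86 (SE 0.22, adjusted p = 0.0024) at 5 min, 2.29 (SE 0.22, adjusted p = 0.00058) at 15 min and 1.66 (SE 0.22, adjusted p = 0.00095) at 30 min. The gene named after moc3 of S. pombe had 32.1 and 32.8 FPKM at 0 min, 27.3 and 25.9 at 5 min, 21 and 20.5 at 15 min and 14.2 and 14.4 at 30 min in H. burtonii, each harvest below the one before it, with a change of -1.13 (SE 0.19, adjusted p = 0.0025) at 30 min. In H. pseudoburtonii YCUA_SCHPO TBIG003368 had 33.3 and 26.7 FPKM at 30 min against 7.76 and 6.89 FPKM at 0 min, a change of 1.89 (SE 0.39, adjusted p = 0.0086), lost without 0 min replicate 1 (1.96), 0 min replicate 2 (1.81) or 30 min replicate 1 (1.74). HAH1, a probable regulatory protein, had 40.2 and 66.6 FPKM at 30 min against 82.6 and 95 FPKM at 0 min in H. pseudoburtonii and 58.1 and 59 FPKM at 30 min against 31.3 and 7.63 FPKM at 0 min in H. burtonii, and the species difference was -2.6 (SE 0.66, adjusted p = 0.0089).

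The comparison of the species rests on 58 pairs of regulator genes, joined by the Swiss-Prot accession that both carried once or, for 4 pairs, by name, and such pairs may join paralogs. The change from 0 min differed between the species for 11 pairs at 5 min, 14 at 15 min and 18 at 30 min, which is 19%, 24.1% and 31% of the pairs. Of all 3399 gene pairs tested, 15.5%, 20.8% and 36.1% were called. At 30 min 9 of the 58 pairs were called higher in both species (ada, AZF1, HOT1, MUB1, RIM101, SDS3, SPAC25B8.19c, TFB1 and TUP1) and 2 lower in both (DOT6 and ZPR1). Another 6 were called in opposite directions. MSN4, acu-15, MET32, CZF1 and PHO23 were higher in H. pseudoburtonii and lower in H. burtonii, and SFP1 was lower in H. pseudoburtonii and higher in H. burtonii. Of the regulator pairs 15.5% were higher in both, 3.45% lower in both and 10.3% opposite, against 9.41%, 1.74% and 7.21% of all 3399 pairs, and the difference of these shares was not tested. At 5 min 1 pair was called higher in both (SPAC25B8.19c) and 1 in opposite directions (ZPR1), beside 0.53% and 1.32% of all pairs, and at 15 min 4 were higher in both (ada, MUB1, RIM101 and SPAC25B8.19c), beside 2.77%. Of the 58 genes on each side, 25 were called higher and 3 lower in H. pseudoburtonii at 30 min, against 19 higher and 8 lower in H. burtonii. Over all pairs 23.2% were higher and 11.9% lower in H. pseudoburtonii, and 39.4% and 9.18% in H. burtonii. Fewer differences were called at 5 min without either H. burtonii 5 min library or H. pseudoburtonii 0 min replicate 2. The same held at 15 min without H. burtonii 15 min replicate 2 or either H. pseudoburtonii 0 min library. At 30 min the count moved less. The share of all pairs called in these fits was not counted, so a loss particular to the regulator pairs is not shown.

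**Figure D5:**
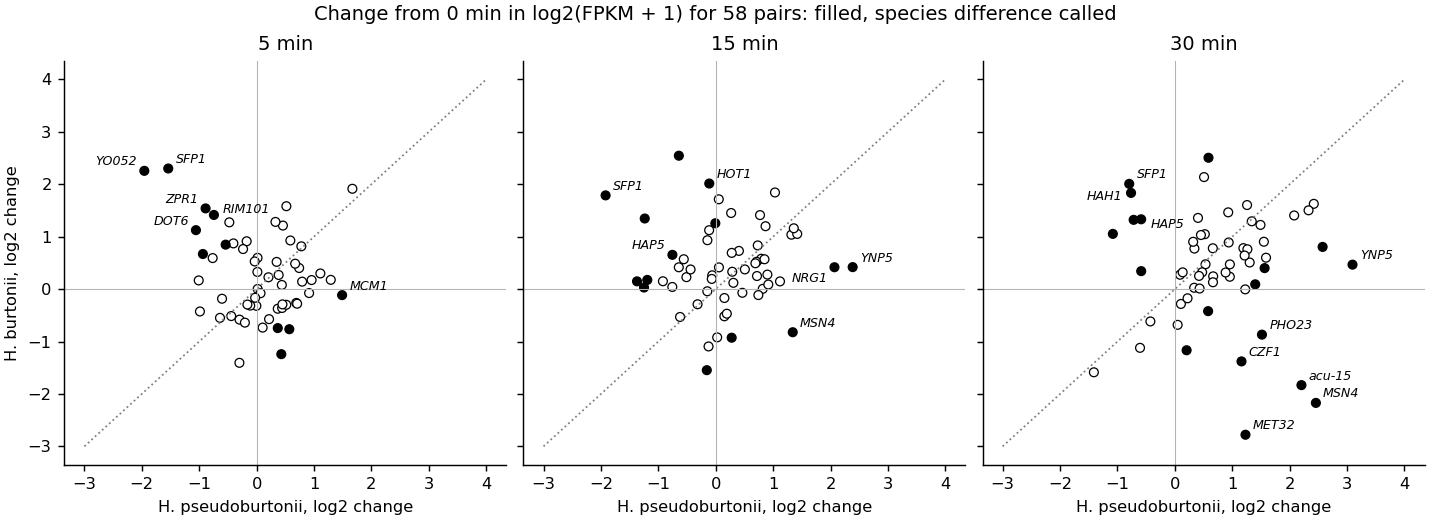
Change from 0 min in log2(FPKM + 1) in H. pseudoburtonii (x axis) and H. burtonii (y axis) for 58 pairs of regulator genes at 5, 15 and 30 min, with the line of equal change dotted. Filled points differ between the species at an adjusted p under 0.05 (11, 14 and 18 pairs), and at 30 min MSN4, acu-15 and MET32 lie farthest below the line.

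Genes around these factors, taken from lists of names, were counted for comparison. Of the Mediator subunits, which link factors to RNA polymerase II, 2 of 22 were called higher at 30 min in H. pseudoburtonii and 11 of 20 in H. burtonii. Their median change was 0.56 in H. pseudoburtonii and 0.89 in H. burtonii, beside 0.39 and 0.56 over all genes. Of the TFIID and SAGA subunits, 9 of 27 were higher and 1 lower at 30 min in H. pseudoburtonii and 12 of 30 higher and 1 lower in H. burtonii, with medians of 0.72 and 0.61; 2 and 4 of them are regulator genes counted above. Of the kinases, phosphatase and sensors upstream, 5 of 14 were higher in H. pseudoburtonii, and 7 of 17 were higher and 3 lower in H. burtonii, with medians of 0.70 and 0.53. These shares stand beside 25.8% and 37% of all genes called higher at that time.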

How the data were processed

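Each species came as a gene table of its 8 libraries. The authors deposited FPKM without counts, so depth is unknown. The submitters' processing notes name TopHat2 2.1.1, Cufflinks 2.2.1, CASAVA 1.8.2 and FastQC 0.11.8. No source used here gives the genome build, the use of strand or how shared reads were divided, and coordinates are as the files give them.

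FPKM were turned into log2(FPKM + 1), which understates changes of genes with few FPKM. Genes reaching 1 FPKM in 2 or more of a species' 8 libraries were kept (5798 in H. pseudoburtonii and 6047 in H. burtonii). Each species was fitted by limma 3.58.1 under R 4.3.3 with 1 group for each time and a prior variance that follows the mean, and p-values were adjusted over all genes by Benjamini and Hochberg's method. The comparisons with 0 min share the 0 min libraries. A second fit over 3399 gene pairs subtracted the H. burtonii change from the H. pseudoburtonii change. Figures were drawn with matplotlib 3.10.9, and tables made with numpy 2.4.6, pandas 2.3.3 and Python 3.11.15, and the fits were tested on simulated data.

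The genes, lists, roles and tests were chosen with earlier results of these data known. The rule for genes named in full takes HOT1, MSN4, RLM1, NDT80 and factors of listed roles, the 5 highest and 5 lowest called genes per species and time whose higher group averaged 10 FPKM or more, 3 and 3 between successive harvests, the 5 largest called pair differences per time and the 5 genes of highest mean. The genes prz1, DEP1, PHO23, ada, YCUA_SCHPO, SDS3, HAP1 TBIG003748, IWS1 and XBP1 of H. pseudoburtonii and ada, VHR2, MUB1, kapC, TFB1 and PHO23 of H. burtonii stand outside it and were picked with their values in view, as were further genes given by values alone. Alternatives were quantile or median-ratio scaling, a pseudocount of 10 or 0.1, no filter, no trend, a replicate block and leaving out each library. The values of 1 gene named by the rule are not reported here.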

Additional observations from a re-analysis of the deposited data

Results flagged for a closer look

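Changes from 0 min that differed between the species by the test of the difference itself are given here on the log2 scale, as the H. pseudoburtonii change less the H. burtonii change. No cause was tested, and each species is 1 strain in its own library series.

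At 5 min the difference was -4.21 for YO052_YEAST, -3.84 for SFP1, -2.43 for ZPR1, -2.18 for DOT6 and -2.16 for RIM101, the lower change being that of H. pseudoburtonii. It was 1.6 for MCM1. At 15 min it was -3.71 for SFP1, -3.19 for YO052_YEAST, -2.13 for HOT1 and -1.41 for HAP5. On the other side were MSN4 (2.16), YNP5_YEAST (1.97) and NRG1 (1.65).

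At 30 min the genes with the more positive change in H. pseudoburtonii were MSN4 (4.63), acu-15 (4.04), MET32 (4.01), YNP5_YEAST (2.63), CZF1 (2.54), PHO23 (2.39), RIM101 (1.77), TOD6 (1.37) and DEP1 (1.31). Those with the more negative change there were SFP1 (-2.8), HAH1 (-2.6), TFB2 (-2.13), BYE1 (-1.92) and HAP5 (-1.92). For SFP1 and YO052_YEAST the 0 min libraries of H. burtonii stood several fold apart.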

How the results depend on the processing

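Of the 117 single changes printed, 73 stayed called in every alternative, 44 lost the call in at least 1, and none turned sign; the cause was not tested. With each library left out in turn, the genes called higher numbered 0 to 6, 2 to 13 and 16 to 42 at 5, 15 and 30 min in H. pseudoburtonii and 3 to 27, 10 to 36 and 19 to 42 in H. burtonii, and those called lower 1 to 9, 2 to 7 and 1 to 4 in H. pseudoburtonii and 0 to 6, 1 to 5 and 8 to 11 in H. burtonii. Between harvests the ranges were 2 to 5 and 0 to 24 in H. pseudoburtonii and 0 to 20 and 2 to 17 in H. burtonii, and for the species differences 6 to 15, 6 to 15 and 14 to 18. A time left with 1 library was taken to vary like the others. The share of all genes called in each species moved in these fits too, and the share of all pairs called was not counted.

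With median-ratio scaling, 3 genes were higher at 5 min, 22 higher and 9 lower at 30 min and 9 called between 15 and 30 min in H. pseudoburtonii, and 14 higher and 13 lower at 15 min and 15 higher at 30 min in H. burtonii. With quantile scaling these were 2, 17, 11, 9, 11, 11 and 11, and 8 were higher at 15 min in H. pseudoburtonii and 8 lower at 5 min in H. burtonii. Without the trend 2 were lower at 30 min in H. pseudoburtonii (8.14% of all genes). A pseudocount of 10 gave 30 between 15 and 30 min there, all higher, with 15.9% of all genes higher and 4% lower. Labels number the libraries 1 and 2 at each time, and deviations of same-numbered libraries correlated at -0.0917 to 0.038 across genes in H. pseudoburtonii and -0.164 to 0.459 in H. burtonii, so the numbers were not shown to pair the libraries. With a replicate block 1 gene was higher at 5 min in H. pseudoburtonii (2.21% of all genes). Between 15 and 30 min 9 were called there (7.74% of all genes higher and 1.98% lower). The other counts moved by 1.5 times or less. Depth, given only as a rough estimate, limits the genes with few FPKM.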

Other observations

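Regulator genes were direct neighbours in several places, some of them under the same annotation. In H. burtonii SPT7, a SAGA subunit, was on 2 genes of 1374 and 2109 bases with 53 bases between them on the same strand, while the single SPT7 gene of H. pseudoburtonii spanned 3828 bases. SPT8 and spt8 of H. burtonii spanned 564 and 1332 bases with a gap of 221 bases, and SPT8 of H. pseudoburtonii 2295 bases. TFC1 and sfc1, both annotated as subunits of TFIIIC, spanned 690 and 945 bases with a gap of 134 bases, beside 1740 bases for TFC1 of H. pseudoburtonii. TDA9 was on genes of 615 and 2612 bases with a gap of 26 bases, beside 4245 bases. The levels of such neighbours differed. TDA9 TBIG005056 had 94.9 and 105 FPKM at 0 min and TBIG005057 had 4.41 and 7.52 FPKM at 0 min. The gene sfc1 had 66.2 and 73.8 FPKM at 5 min against 29.6 and 22.9 FPKM at 0 min, and TFC1 had 6.28 and 7.28 FPKM at 5 min against 3.17 and 5.96 FPKM at 0 min.

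PHO23 and MET32 were neighbours in both species, on opposite strands and pointing away from each other, 2610 bases apart in H. pseudoburtonii and 870 in H. burtonii. Both had a positive called change at 30 min in H. pseudoburtonii and a negative one in H. burtonii.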
